A study of Mus musculus with 10 samples.

Results

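Endothelial identity genes are genes whose transcripts mark endothelial cells, among them those that line the aorta. Some are also found in other cells, as given below. A list of 30 such genes was read in RNA from the aortic arch, cleaned of connective tissue, in 2 genotypes of mice. Double-null mice (ApoE-/-,MyD88-/-) lacked apolipoprotein E and MyD88, and apoE-null mice (ApoE-/-) lacked apolipoprotein E alone. Members were taken by gene symbol, from a list chosen with earlier results of these data known. Of the 30 genes, 25 had a probe and 21 were tested, among 4299 genes tested in all. The 10 two-colour arrays compared single mice, 1 per genotype, and came from 5 mouse pairs hybridised in both dye orientations, so that pairs are the replicates. Both mice were female in pair 1 and male in pairs 2, 3 and 4, whereas in pair 5 the double-null mouse was male and the apoE-null one female. Apolipoprotein E was therefore absent from both genotypes, and no apolipoprotein E-competent mouse was on the arrays. A high fat diet of 8 weeks is given in the labels of 8 arrays, and the other 2 held mice that appear on arrays with the statement. The sources used here give neither age nor strain background. The 2 arrays of pair 1 give mice 7 and 8 opposite genotypes, and the genotype was followed.

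The endothelium is the cell layer between blood and the vessel wall. Its identity rests on junction proteins that seal neighbouring cells, on receptors for vascular growth factors such as the VEGF and angiopoietin families, and on transcription factors of the ETS, SOX and KLF families. Steady laminar flow raises Klf2 and Klf4 and, through them, nitric oxide synthase and thrombomodulin, and lowers endothelin; in the curved arch, where flow is disturbed, this programme is known to be weak and plaques form. The comparison asks whether these transcripts differ in whole arch tissue between apoE-null mice with and without MyD88, an adaptor of Toll-like and interleukin-1 receptors.

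No endothelial identity gene passed the test of a difference between the genotypes. With limma fitted over all genes, 0 of the 21 tested members rose and 0 fell at an adjusted p under 0.05, against 0.814% of all genes tested, of which 27 rose and 8 fell. At an unadjusted p under 0.05 there was 1 member, Edn1, where the share of all genes was 9.47%. Mean log2 ratios of the members, given throughout as double-null over apoE-null, ran from -0.29 to 0.28. Of these means, 10 lay above 0 and 11 below. Their median was -0.01, beside -0.04 for all genes tested. The targeted gene checked the labels: Myd88 was lower in double-null mice by a mean log2 ratio of -0.90 ± 0.22 (SD over 5 pairs, adjusted p = 0.0269 in limma) and lay below 0 on 10 of 10 arrays. The count of calls over all genes, 35, fell with any pair left out. It was 6, 1, 0, 0 and 17 without pair 1, 2, 3, 4 or 5, and that of the members was 0 each time. Those fits also have fewer replicates, and the part of lost replication in the fall was not tested.

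The intervals bound the mean ratio of each tested member, taken singly and on the scale of the arrays. On that scale the targeted gene Myd88 read -0.90, and how array ratios relate to true changes was not tested. Members without a test have no such bound. For all 21 tested members the 95% interval of the mean, from limma's moderated standard error, lay inside a 2-fold change in either direction, and for 17 it lay inside a 1.5-fold change. The exceptions to the narrower bound were Kdr, Klf4, Emcn and Ptprb. Among the 18 members with values in all 5 pairs, the SD between pairs had a median of 0.28, beside 0.30 for the 3192 genes measured as often. Their absolute mean log2 ratio had a median of 0.17, beside 0.14. These values describe whole arch tissue, in which fewer endothelial cells and less RNA per cell cannot be told apart. The ratios also carry no level of expression, so no member could be ranked against another by abundance. Of 27 member probes, 18 had a value on all 10 arrays, beside 26.0% of all probes.

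**Figure D1:**
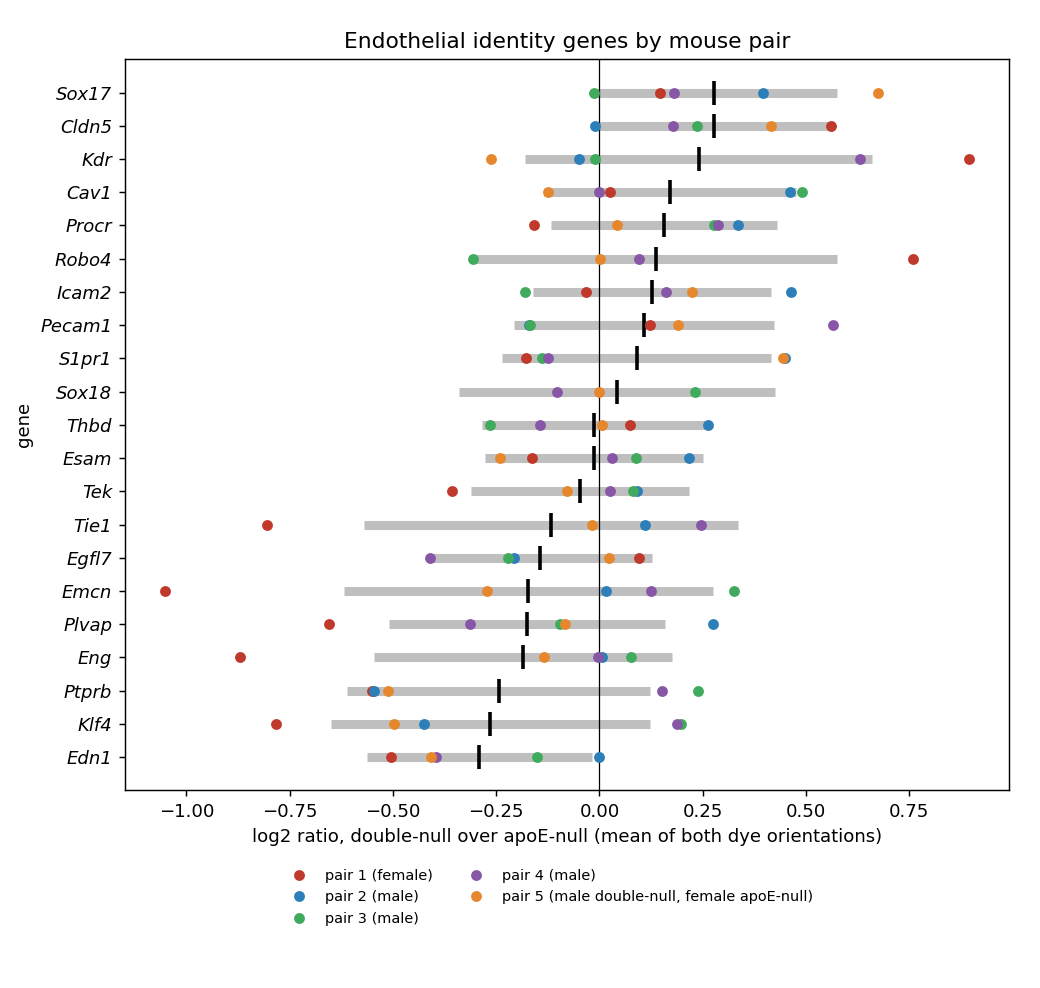
Log2 ratio (double-null over apoE-null, horizontal axis) of the 21 tested endothelial identity genes, ordered by mean. Points are mouse pairs, each the mean of its dye orientations, black ticks are means over pairs and grey bars are 95% intervals from limma; only the bar of Edn1 does not reach 0, and pair 1 holds the lowest point of Emcn, Eng and Tie1 and the highest of Kdr and Robo4.

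Members of the list without a test are accounted for first. Vwf, Erg, Ly6c1, Mmrn2 and Ecscr had no probe by symbol in the platform annotation. The probe of Klf2, the best known flow-induced factor, was blank on all 10 arrays, so its level in either genotype is unknown. Cdh5, the adhesion molecule of endothelial junctions, Flt1, a VEGF receptor, and Nos3, the endothelial nitric oxide synthase, had values on too few arrays. Cdh5 read 0.34, 0.23, 0.27 and 0.37 in pairs 1, 3, 4 and 5, all with double-null RNA in channel 1, and its other 6 arrays were blank, as was a further probe on all 10. Flt1 read 0.54, 1.28, 0.37 and 0.00 in pairs 1, 2, 4 and 5 in that orientation alone. Every value of these genes from 1 orientation contains any dye effect in full, so genotype and dye cannot be told apart in them. Nos3 read -0.38, -1.0, 0.76 and 0.15 in pairs 1, 3, 4 and 5 with double-null RNA in channel 1, and 0.17 in pair 5 in the opposite orientation, so its pairs went both ways.

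Genes of junctions and adhesion came out near 0 or slightly above it. Of the 4 tested, none passed the test and 3 had means above 0. Cldn5, the claudin that tightens the endothelial barrier, had pair values of 0.56, -0.01, 0.24, 0.18 and 0.42 in pairs 1 to 5. Its mean was 0.28 ± 0.22 (SD, n = 5 pairs, adjusted p = 0.521), with an interval from 0.00 to 0.55, and 4 of 5 pairs lay above 0. Pecam1, the platelet and endothelial adhesion molecule found at cell borders, read 0.12, -0.17, -0.17, 0.56 and 0.19, with a mean of 0.11 ± 0.30 (SD, n = 5 pairs, adjusted p = 0.774). Pairs 2 and 3 were the low ones and pair 4 the high one, and without pair 4 its mean was -0.01. Icam2, a constitutive ligand for leukocyte integrins, read -0.03, 0.46, -0.18, 0.16 and 0.22. Esam, an immunoglobulin-family protein of tight junctions, stayed between -0.24 and 0.22, with a mean of -0.01 ± 0.19 (SD, n = 5 pairs).

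Receptors for vascular growth factors had pair values on both sides of 0. Of the 5 tested, none passed, and 4 had means below 0. Kdr, the main signalling receptor for VEGF-A, read 0.89, -0.05, -0.01, 0.63 and -0.26 in pairs 1 to 5. Its high values were in pairs 1 and 4, and its mean was 0.24 ± 0.49 (SD, n = 5 pairs, adjusted p = 0.663). Tek, the angiopoietin receptor also called Tie2, read -0.36, 0.09, 0.08, 0.02 and -0.08, with a mean of -0.05 ± 0.19 (SD, n = 5 pairs, adjusted p = 0.893). Tie1, its co-receptor, read -0.81, 0.11, 0.25 and -0.02 in pairs 1, 2, 4 and 5 and had no value in pair 3. For this receptor pair the low value was in each case that of pair 1. Ptprb, the phosphatase that restrains Tek, split the pairs otherwise: -0.55, -0.55 and -0.51 in pairs 1, 2 and 5 against 0.24 and 0.15 in pairs 3 and 4. Its mean was -0.24 ± 0.40 (SD, n = 5 pairs, adjusted p = 0.618). That split came from 1 orientation. With double-null RNA in channel 1 all 5 Ptprb arrays lay between -0.46 and -0.18. In the opposite orientation pairs 3 and 4 gave 0.73 and 0.49. Eng, the endoglin co-receptor for BMP9 and TGF-β, read -0.87 in pair 1 and between -0.13 and 0.08 in the other pairs. Without pair 1 the means of Tek and Tie1 changed sign, to 0.03 and 0.11.

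Genes of coagulation and vessel tone included the member closest to the threshold. Edn1, which encodes the vasoconstrictor endothelin-1, read -0.50, 0.00, -0.15, -0.39 and -0.41 in pairs 1 to 5. Thus 4 of 5 pairs lay below 0, and pair 2 sat at 0 because its arrays gave -0.09 and 0.09. The mean was -0.29 ± 0.21 (SD, n = 5 pairs), a ratio between 0.68 and 0.99 by its 95% interval, with an adjusted p of 0.504 over all genes. Thbd, thrombomodulin, and Procr, the endothelial protein C receptor, work together on the anticoagulant protein C pathway. Thbd had a mean of -0.01 ± 0.20 and Procr of 0.16 ± 0.21 (SD, n = 5 pairs each), and Procr lay above 0 in 4 of 5 pairs. The Thbd mean hides its arrays: 0.79, 0.33, 0.11, 0.28 and 0.26 in pairs 1 to 5 with double-null RNA in channel 1, but -0.64, 0.20, -0.64, -0.57 and -0.25 in the opposite orientation. Only pair 2 gave the same sign in both.

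Among transcription factors, 3 were tested and none passed. Sox17, which acts in arterial endothelium, read 0.15, 0.40, -0.01, 0.18 and 0.67 in pairs 1 to 5, above 0 in 4 of 5 pairs, with a mean of 0.28 ± 0.27 (SD, n = 5 pairs, adjusted p = 0.531). Its relative Sox18 read 0.23, -0.10 and 0.00 in pairs 3, 4 and 5. In pairs 1 and 2 Sox18 had values in 1 orientation alone, 1.36 and 0.38, and these were not used. Klf4, induced by flow and by inflammation and also found in smooth muscle cells and macrophages, read -0.78, -0.42, 0.20, 0.19 and -0.50. Pairs 1, 2 and 5 were low and pairs 3 and 4 high, the same division as for Ptprb, and the mean was -0.26 ± 0.44 (SD, n = 5 pairs, adjusted p = 0.609). The arrays of Klf4 in pair 4 differed in sign, with -0.32 for double-null RNA in channel 1 and 0.69 in the opposite orientation.

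Surface and matrix markers, 6 of 9 tested, held 3 means above 0 and 3 below, and none passed. Emcn, the endomucin sialomucin of veins and capillaries, had the widest spread of any member with 5 pairs: -1.05, 0.01, 0.32, 0.12 and -0.27, with a mean of -0.17 ± 0.54 (SD, n = 5 pairs). Plvap, which forms the diaphragms of fenestrae and caveolae, read -0.66, 0.27, -0.10, -0.31 and -0.08. Cav1, the caveolin of caveolae in endothelium, smooth muscle and fat, read 0.03, 0.46, 0.49, 0.00 and -0.12. Robo4, an endothelial guidance receptor, read 0.76, -0.31, 0.09 and 0.00 in pairs 1, 3, 4 and 5. S1pr1, the receptor through which sphingosine-1-phosphate tightens the barrier, read -0.18, 0.45, -0.14, -0.12 and 0.45, and Egfl7, a secreted endothelial matrix protein, lay between -0.41 and 0.10. Within this group, then, Emcn and Plvap were lowest in pair 1 while Robo4 was highest there. Without pair 1 the means of Emcn and Robo4 changed sign, to 0.05 and -0.07.

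The flow-responsive members gave no common direction that passed. Klf2 was blank and Nos3 had 1 pair value, which left Klf4, Edn1, Thbd and S1pr1. Their medians in pairs 1 to 5 were -0.34, 0.13, -0.15, -0.13 and -0.20, and 3 of the 4 means were below 0. Flow-induced Klf4 and flow-repressed Edn1 both had negative means, and none of the 4 passed.

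None of the members with 5 pairs kept 1 sign in all of them (0 of 18), counting values closer to 0 than 0.005 as without sign, beside 10.2% of all genes measured in 5 pairs. Per pair, the members divided into 8 above and 12 below 0 in pair 1, 12 and 6 in pair 2, 10 and 10 in pair 3, 13 and 6 in pair 4, and 8 and 11 in pair 5. Their pair medians were -0.16, 0.09, 0.03, 0.09 and -0.02. Pair 1 held the largest departures, with a median absolute log2 ratio of 0.43 over its 20 members, where the other pairs had 0.16 to 0.22. All genes showed the same excess in that pair on a smaller scale, at 0.34 against 0.18 to 0.28.

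Markers of other cell types are given beside the members as medians in each pair, which for lists of few genes rest on single markers. The medians of 9 tested adipocyte markers (12 listed) were 2.23, -0.31, -0.55, 1.18 and -0.40 in pairs 1 to 5, and thus high in pairs 1 and 4, where Kdr was also high. Smooth muscle markers, 8 of 12 tested, had medians of -0.50, -0.29, 0.31, 0.02 and -0.46, low in pairs 1, 2 and 5 as Klf4 and Ptprb were. Above 0 there were Tpm2 in pairs 1 and 2 (0.70 and 0.35), Tagln in pair 2 (0.36) and Myh11 in pair 5 (0.03). In pair 4, Lmod1 (-0.53), Smtn (-0.42), Cnn1 (-0.15) and Actg2 (-0.02) lay below 0. The medians of fibroblast markers, given next, were divided in the same way, but many single genes were not. Mfap5 read 0.19 and 0.78 in pairs 1 and 2, and Serpinf1 0.12 and 0.10 in pairs 1 and 5. Dcn, Col3a1 and Pdgfra read 0.33, 0.15 and 0.15 in pair 2. Lum and Dpt were below 0 in pairs 3 and 4 as well. Macrophage markers, 14 of 15 tested with 1 lower at an adjusted p under 0.05 (Cd5l), had medians of -1.07, -0.31, -0.75, -0.61 and 0.19, and fibroblast markers, 11 of 12 tested, -0.27, -0.23, 0.03, 0.04 and -0.36. Platelet markers, which bear on Pecam1 and Icam2, had medians of 1.05, 0.45, -0.31, -0.29 and 2.71 over 4 of 11 tested. Red cell markers, 2 of 10 tested, had medians from 0.30 to 1.33, lymphocyte markers, 3 of 12 tested, from -0.19 to 0.29, lymphatic endothelial markers, 2 of 7 tested, from -1.09 to 0.50, and striated muscle markers, 6 of 12 tested, from -0.93 to 1.86. The part of other cell types in the members' ratios was not tested.

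**Figure D2:**
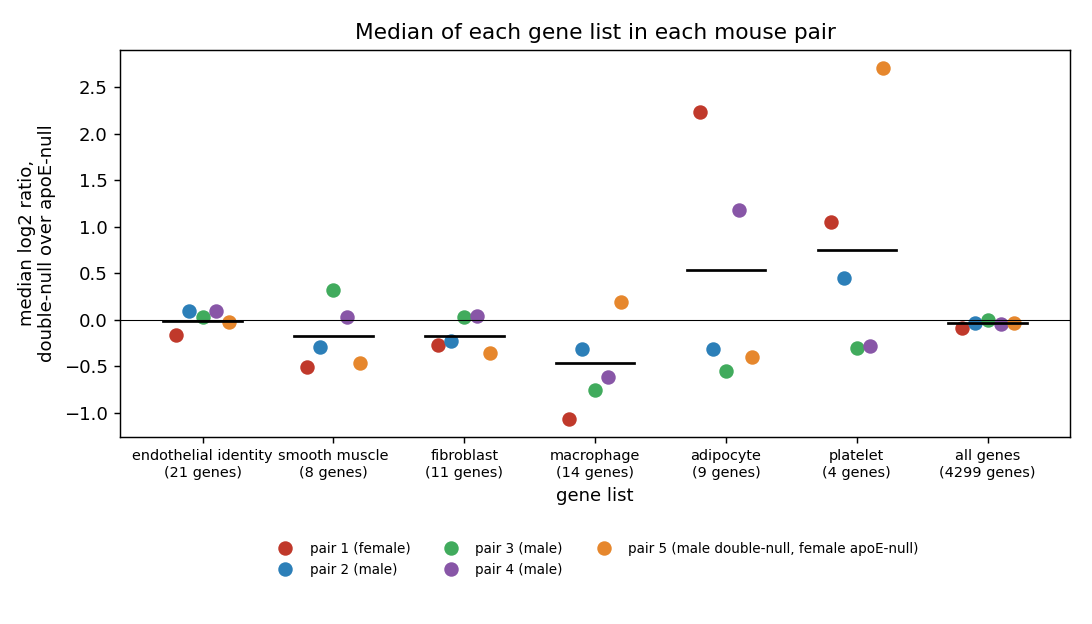
Median log2 ratio (double-null over apoE-null, vertical axis) of 6 gene lists and of all genes tested, in each mouse pair (points); black lines are medians of the genes' means over pairs. The endothelial identity genes stay between -0.16 and 0.09, whereas adipocyte markers run from -0.55 to 2.23 and platelet markers from -0.31 to 2.71.

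The female pair was set against the 3 male pairs, since the labels give the sex of each mouse. Of the 20 members tested, 0 differed at an adjusted p under 0.05 in limma, against 0.149% of 4016 genes, and 4 had an unadjusted p under 0.05, where the share of all genes was 15.3%. Those were Emcn, with -1.05 in the female pair against a male mean of 0.15, Eng with -0.87 against 0.03, Tie1 with -0.81 against 0.18, and Robo4 with 0.76 against -0.11. Their adjusted p values were 0.136, 0.217, 0.243 and 0.307. The female value lay outside the range of the male values for 15 of the 20 members, beside 63.9% of all genes. The single female pair has no spread of its own and was given that of the male pairs, and sex cannot be told apart from the adipocyte transcripts that were highest in pair 1.

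**Figure D3:**
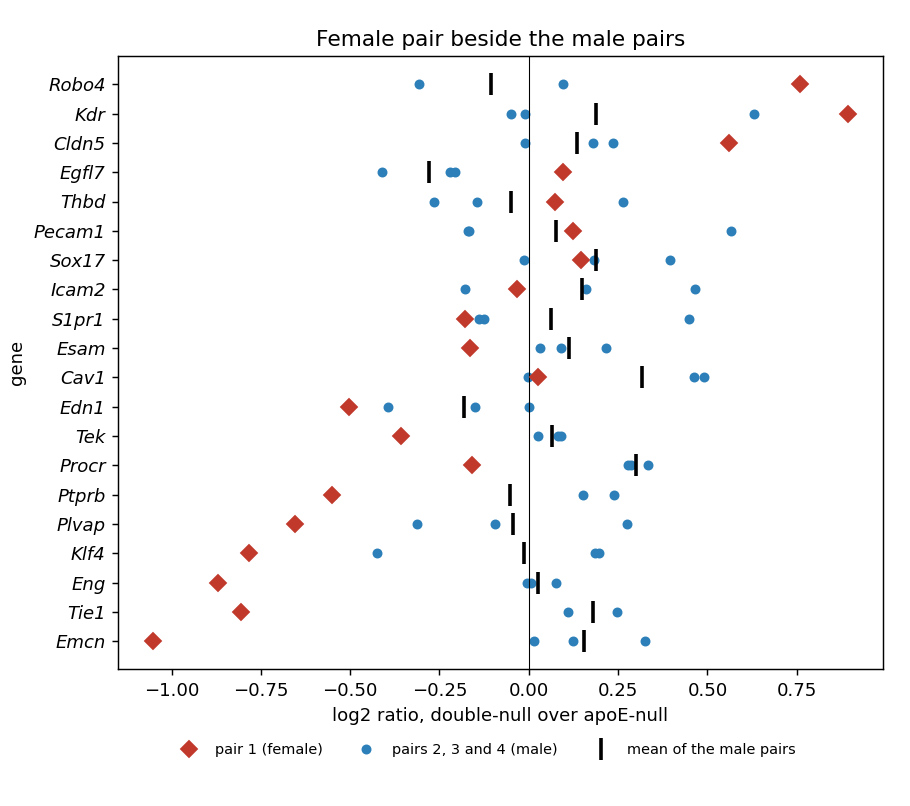
Log2 ratio (double-null over apoE-null, horizontal axis) of the 20 endothelial identity genes measured in pair 1 and at least 2 male pairs, ordered by the difference. Diamonds are the female pair, dots the male pairs and ticks their mean; the diamonds of Emcn, Eng and Tie1, at -1.05, -0.87 and -0.81, lie left of every male dot, and that of Robo4, at 0.76, lies right of both of its dots.

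The promoters of Emcn, Eng, Tie1 and Klf4, the members lowest in the female pair, are shown beside those of Kdr and Robo4, the members highest in it, to let their sequences be compared. The members were picked for these values after they were seen. Each line gives the 250 bases before the start of transcription from RefSeq (GRCm38.p6), written 5′ to 3′ on the strand of the gene, with capitals marking AGGAAG on either strand, a core recognised by ETS factors such as Erg and Fli1. Of the 30 genes, 16 matched an entry of the promoter table.

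Emcn, chr3:137340828-137341077, plus strand: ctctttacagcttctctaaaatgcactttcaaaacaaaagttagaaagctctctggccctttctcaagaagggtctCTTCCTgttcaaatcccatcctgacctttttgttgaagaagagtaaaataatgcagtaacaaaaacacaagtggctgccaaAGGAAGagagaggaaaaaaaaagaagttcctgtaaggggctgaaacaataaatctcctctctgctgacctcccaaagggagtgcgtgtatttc
Eng, chr2:32646345-32646594, plus strand: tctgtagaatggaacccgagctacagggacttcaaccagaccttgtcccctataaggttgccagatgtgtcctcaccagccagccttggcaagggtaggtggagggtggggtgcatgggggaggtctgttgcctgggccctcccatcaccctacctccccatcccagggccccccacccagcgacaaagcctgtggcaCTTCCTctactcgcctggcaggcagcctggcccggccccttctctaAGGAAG
Tie1, chr4:118489850-118490099, minus strand: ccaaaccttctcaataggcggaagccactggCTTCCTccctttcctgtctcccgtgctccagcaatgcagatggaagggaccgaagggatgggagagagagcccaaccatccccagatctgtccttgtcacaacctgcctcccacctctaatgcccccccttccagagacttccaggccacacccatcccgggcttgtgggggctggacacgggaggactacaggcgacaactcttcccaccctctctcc
Klf4, chr4:55532476-55532725, minus strand: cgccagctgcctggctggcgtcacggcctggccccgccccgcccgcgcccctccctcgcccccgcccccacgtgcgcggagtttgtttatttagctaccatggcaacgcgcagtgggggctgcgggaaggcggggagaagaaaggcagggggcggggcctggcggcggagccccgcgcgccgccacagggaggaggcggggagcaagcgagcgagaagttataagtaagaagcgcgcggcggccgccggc
Kdr, chr5:75978456-75978705, minus strand: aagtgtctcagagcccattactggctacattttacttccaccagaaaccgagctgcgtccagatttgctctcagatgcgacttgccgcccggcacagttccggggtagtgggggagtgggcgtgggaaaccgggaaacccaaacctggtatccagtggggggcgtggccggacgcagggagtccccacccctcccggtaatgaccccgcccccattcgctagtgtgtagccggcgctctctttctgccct
Robo4, chr9:37401722-37401971, plus strand: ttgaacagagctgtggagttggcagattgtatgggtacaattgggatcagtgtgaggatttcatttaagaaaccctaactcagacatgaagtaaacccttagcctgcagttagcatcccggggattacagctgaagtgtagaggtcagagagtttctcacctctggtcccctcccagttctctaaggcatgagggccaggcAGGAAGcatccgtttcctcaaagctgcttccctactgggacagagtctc

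The letters occur 2 times in the Emcn stretch, 2 times in that of Eng, 1 time in those of Tie1 and Robo4 and 0 times in those of Klf4 and Kdr, so low and high members both include promoters with and without them. Of the 16 promoters matched, 6 held them (37.5%), beside 29.2% of 27025 promoters of the same length, taking the first start listed for each gene. A match describes the sequence and does not show a bound site.

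The 2 dye orientations were also compared. At an adjusted p under 0.05, 1 of 21 tested members, Thbd, had a dye effect (adjusted p = 0.0434), against 4.82% of all genes tested. Its mean was 0.36 with double-null RNA in channel 1 and -0.38 with it in channel 2. Centring each array on its median, or leaving out pair 1, 3 or 4, ended that call. Members had a median of 0.19 in the channel 1 orientation and -0.06 in the channel 2 orientation, whereas all genes had -0.05 and -0.04. Means of opposite sign in the 2 orientations were found for 8 of 21 members (38.1%) and for 41.5% of all genes. Tek had 0.20 and -0.30, Emcn 0.04 and -0.38, and Pecam1 0.28 and -0.06. By contrast, Edn1 (-0.43 and -0.15), Cldn5 (0.23 and 0.32), Sox17 (0.33 and 0.23) and Procr (0.19 and 0.12) kept their sign. Blank cells were also uneven. Of 24 member probes with any value, 3 of 120 cells were blank with double-null RNA in channel 1 and 18 of 120 with it in channel 2. Per array, the share of blank probes was 49.1% to 58.6% in the former orientation and 60.8% to 67.0% in the latter.

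**Figure D4:**
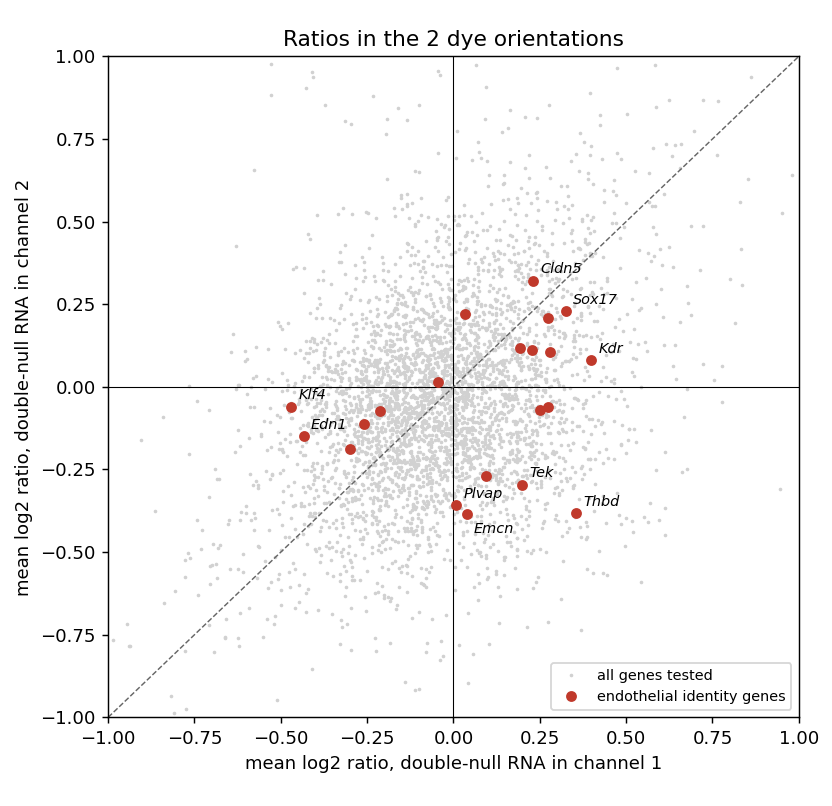
Mean log2 ratio (double-null over apoE-null) with double-null RNA in channel 1 (horizontal axis) against that with it in channel 2 (vertical axis), for 21 endothelial identity genes (large dots) and all genes tested (small dots, 121 of them outside the axes). The dashed line marks equal values; Thbd lies at 0.36 and -0.38, far below the line, and Cldn5 and Sox17 lie above 0 on both axes.

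Other genes of vascular pathways also gave no call. From a list of 121 ligands, receptors, transcription factors, surface proteins, haemostatic genes and activation genes, 53 were tested, 0 rose and 0 fell, and 4 had an unadjusted p under 0.05. The median of the list was -0.03, with 23 means above 0 and 30 below. Bmp4, a bone morphogenetic protein that endothelium makes under disturbed flow, read -0.98, -0.57, -0.17, -0.34 and -0.36 in pairs 1 to 5, below 0 in 5 of 5 pairs, with a mean of -0.49 ± 0.31 (SD, n = 5 pairs, adjusted p = 0.260). Hif1a, the hypoxia-inducible factor, had a mean of -0.38 ± 0.31 (SD, n = 5 pairs, adjusted p = 0.456). Tal1, a blood and endothelial transcription factor, had 0.42 ± 0.06 (SD, n = 4 pairs, adjusted p = 0.284), but its means in the orientations were -0.27 and 1.07 and it carried a dye effect (adjusted p = 0.0250). Gdf2, which encodes BMP9, the circulating ligand that Eng binds, read 2.48, 2.10, 0.30, 0.35 and 5.06 (adjusted p = 0.291). The arrays of pair 5 gave 6.64 and 3.48, and 6.64 is the limit of the deposited values, so that pair's value is not exact. With values at the limit set to missing, the mean of Gdf2 moved from 2.06 to 1.31 (adjusted p = 0.306), and no member had a value at the limit. The high pairs of Gdf2, 1, 2 and 5, were those in which the median of the 4 tested platelet markers was above 0. In pair 2, however, Clec1b read -1.12 and Ppbp had no value, while Pf4 and Itga2b read 0.62 and 0.45. The source of the Gdf2 values was not tested. Angptl4, a lipoprotein lipase inhibitor also made by fat, had 0.54 ± 0.74 (SD, n = 4 pairs, adjusted p = 0.546).

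Activation genes of that list, 4 of 10 tested, all had negative means, beside 58.3% of all genes tested, and none passed. These are ratios of whole arch tissue, and the cells behind them were not tested. Selp, the P-selectin that captures leukocytes, read -1.07, -0.23, -0.39, 0.07 and -0.15 in pairs 1 to 5 (mean -0.35 ± 0.43, SD, n = 5 pairs, adjusted p = 0.531). Vcam1, the adhesion molecule that retains monocytes in plaque, read -1.42, -0.89, -0.33, 0.09 and 0.48 (mean -0.41 ± 0.76, SD, n = 5 pairs, adjusted p = 0.601). Irf1 read 0.07, -0.19, -0.62, -0.23 and -0.21 (mean -0.24), and so was highest in pair 1. Nfkbia read -0.94, 0.11, 0.77, 0.67 and -0.86 (mean -0.05), and so was low in pair 5 as well. The medians of these 4 genes in pairs 1 to 5 were -1.0, -0.21, -0.36, 0.08 and -0.18, lowest in the female pair.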

How the data were processed

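Amplified RNA was hybridised with 1 genotype in each channel, quantified in GenePix Pro and analysed in GeneSpring by the authors, per the labels. The values they deposited are log2 ratios of apoE-null over double-null, negated here. Their normalization and the filter behind blank cells were not given in the sources used here; no intensities were used, so signal over background is unknown. The number of arrays and the blank cells limit the precision.

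The dye-swapped arrays of a mouse pair hold the same extracts and were averaged to 1 replicate, which needed both arrays. The mouse numbers in the labels give the pairing. Probes needed 3 pair values, and those of a gene were averaged. In R 4.3.3, limma 3.58.1 (functions lmFit, eBayes; tests two-sided) compared each gene's mean with 0, and p-values were adjusted by Benjamini-Hochberg over 4299 genes; the fit was tested on simulated data. Dye effects were tested on the difference between orientations, and the female pair was tested against the male pairs, in the same way. Symbols came from the platform annotation, updated by identifier (12009 of 12143 single symbols matched). The members and lists were chosen with earlier results of these data known. Named with full values were the 5 members of lowest p, core identity and flow-responsive genes, and 3 vascular genes of lowest p in each direction; others were chosen after their values were seen. Alternatives covered pairs left out, a replicate block, single orientations, blanks, centring, scaling, filters, probes, floor values, sex and the test.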

Additional observations from a re-analysis of the deposited data

Results flagged for a closer look

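In 27 groups of 4 or 5 pair values, those of the tested members, of the vascular genes named and of the members' median, 1 held a value far from the others by Dixon's ratio. The log2 ratio of Eng in pair 1, the female pair, was -0.87, where the other 4 pairs lay between -0.13 and 0.08. Chance sets about 1 in 20 such groups apart, and the cause was not tested.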

How the results depend on the processing

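The count of members called was 0 under each of 19 other settings, with a smallest adjusted p of 0.277, for Edn1, in the channel 1 orientation alone. With the arrays fitted singly and the mouse pair as a replicate block, it was 0 as well. There 2 of 21 members had an unadjusted p under 0.05 in limma, beside 518 of 4299 genes. In the channel 1 orientation alone 6 of 24 members did, beside 790 of 5552 genes. The exact permutation test that flips signs of pairs has 0.0625 as its smallest possible p, so it could call no gene. Without pair 3 or 4 the count over all genes was 0 too, and without pair 2 it was 1. A count of 0 members in these settings therefore says little. The members' median, -0.01, moved to 0.20 in the channel 1 orientation alone. In the male pairs alone 1 of 42 vascular pathway genes, F3 (tissue factor), was called, beside 33 of 3407 genes in all. In the main setting 0 vascular pathway genes were called. The dye effect count of 1 became 0 after median centring and lay between 0 and 1 without single pairs.

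Of 386 member values under these settings, 363 kept the sign of the main one and 23 did not. That count overstates stability, since several settings left every member's mean as it was and could not change a sign. These were the robust fit, the sign-flip test, single probes, floor values set to missing and other minimum numbers of pair values. Leaving out genes with a dye effect was a further one. In the channel 1 orientation Tek was 0.20, Tie1 0.094, Thbd 0.36, Emcn 0.039, Plvap 0.0075, Tal1 -0.27 and Angptl4 -0.10. In the channel 2 orientation Pecam1 was -0.0595, Esam 0.016 and S1pr1 -0.071. After centring Esam was 0.017 and Thbd 0.018. In the male pairs Esam was 0.11, Tek 0.065, Eng 0.025 and Emcn 0.15. Leaving out each pair gave ranges of -0.0065 to 0.18 for Pecam1, -0.071 to 0.043 for Esam, -0.0825 to 0.029 for Tek, -0.24 to 0.11 for Tie1, -0.082 to 0.0497 for Thbd, -0.30 to 0.048 for Emcn and -0.071 to 0.28 for Robo4. The cause was not tested.

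Over all genes the count of calls, 35, fell to between 0 and 17 without single pairs, and was 63 with the replicate block, 99 in the channel 2 orientation, 7 with pair values from either array, 3 without genes that had a dye effect and 0 in the sign-flip test. No alternative was added after the data were seen.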

Other observations

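Among genes known from capillary endothelium, picked after their values were seen, some were high in pairs 1 and 4, where adipocyte markers were high. Others, given after them, were not. Gpihbp1, which holds lipoprotein lipase on the capillary surface, read 1.57, 0.35, -0.16, 1.22 and -0.83 in pairs 1 to 5. Cd36, a fatty acid transporter, read 0.94, -0.10, -0.52, 1.16 and 0.47, and Fabp4, a fatty acid binding protein of capillary endothelium and adipocytes, 1.70, -0.03, -0.38, 0.55 and -0.43. None of these 3 passed the test (adjusted p of 0.656, 0.599 and 0.734 in limma over all genes). Plvap, at -0.66, 0.27, -0.10, -0.31 and -0.08, was lowest in pairs 1 and 4. Calcrl, a receptor for adrenomedullin, read -1.04, -0.14, 0.28, -0.12 and 0.36. Fabp5, a further fatty acid binding protein, read -0.95, -0.18, -0.50, -0.05 and 0.65. Both were lowest in pair 1, but in pair 4 each lay above its value in pair 2. Aqp1, the water channel, read -0.18, -0.08, -0.05, -0.06 and -0.52, and Emcn read -1.05 and 0.12 in pairs 1 and 4. Vegfa, the ligand of Kdr, read 1.65, -0.13, 0.08 and -0.49 in pairs 1, 3, 4 and 5, so it was high in pair 1 alone. The part of perivascular fat in these values was not tested.

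F3, which encodes tissue factor, the starter of coagulation, read 0.84, -1.11, -0.78, -0.90 and 0.68 in pairs 1 to 5. It was low in the 3 male pairs and high in the pairs with a female apoE-null mouse, and in limma over all genes it had an adjusted p of 0.764 over 5 pairs. In the male pairs alone it had a mean of -0.99 and an adjusted p of 0.0293, from the probe with values in each of them. In that setting 33 of 3407 genes were called. The female pair against the male pairs gave an adjusted p of 0.0717. These values are means over its probes, and F3 was chosen after its values were seen.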
